A study of Mus musculus with 14 samples.

Results

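The genes described here make up the contractile apparatus of smooth muscle. They are *Acta2*, *Actg2*, *Myh11* and *Myl9* (filament proteins), *Cnn1*, *Tagln*, *Smtn* and *Lmod1* (proteins that bind or cap actin), and *Des* and *Synpo2* (intermediate filament and scaffold). The members were chosen by name, as the non-control probes whose gene name in the scanner files was one of these symbols. All 10 were on the array, out of 36161 gene names, and they were measured by 13 of 55681 probes. The brightest probe by mean signal stands for each gene, and the 3 other probes, 1 of *Smtn* and 2 of *Synpo2*, are given beside it.

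In the wall of the gut, smooth muscle forms the circular and longitudinal layers of the muscle coat, a thin layer under the mucosa, and the coat of blood vessels. It contracts when myosin light chain is phosphorylated and myosin pulls on actin filaments, which calponin and caldesmon restrain and which dense bodies and intermediate filaments tie into a network. The genes of this apparatus are classic targets of serum response factor and its coactivator myocardin, and their transcripts are the usual markers of differentiated smooth muscle cells.

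The study set healthy gut beside early and late tumor stages of the mouse, and RNA of 14 samples was hybridized to 1 one-color array each. The groups were small intestine of C57BL/6J mice (3 arrays), tissue adjacent to adenoma (2 arrays) and adenoma (3 arrays) of APCmin/+ mice, colon labelled C57BL/6J (3 arrays), and CT26, a mouse colorectal cancer cell line (3 arrays). APCmin/+ mice carry a truncating germline allele of *Apc* and develop adenomas mainly in the small intestine. The tissues were not sorted into cell types. The labels name no layer of the gut wall, and the study's design speaks of mucosa for healthy colon and small intestine, yet genes of smooth muscle were well above background on these arrays.

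By the study's sample list, the small intestine samples came from different animals, whereas every adjacent and adenoma piece came from 1 mouse, so the spread within these groups is that between pieces. The p-values of every comparison with adenoma or adjacent tissue thus do not measure the spread between APCmin/+ animals. The list also places 1 colon sample under an APCmin/+ animal, against its label, and the methods name these mice as a source of normal colon. The study calls replicates of its cell line biological where it describes its methylation libraries, but the CT26 arrays are not described as separate cultures, and p-values then measure only the spread between these samples. The arrays lay on 2 slides, 8 on slide 1 and 6 on slide 2, and each group had arrays on both. By array, 46.8% to 58.2% of probes exceeded background clearly. Colon replicate 3 stood apart, since its correlation with the other colon arrays was 0.9344 and 0.9383 and with the small intestine arrays 0.9506 to 0.9687. Most counts of called genes that rest on it are also given without it. The 8 epithelial markers listed (*Epcam*, *Cdh1*, *Vil1* and others) were all well above background on every tissue array. On the arrays labelled CT26, *Epcam*, *Cdh1*, *Vil1* and *Tspan8* were well above background on 0 of 3. *Krt18* and *Cldn7* were so on 3 of 3, *Krt8* on 2 and *Cdh17* on 1.

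Signals are given as scaled log2 signal, the log2 of the background-subtracted signal minus the 75th percentile of its array, so that 0 is the 75th percentile. Differences are log2 fold changes between group means on that scale. Levels of different genes cannot be set against each other, because each probe has its own brightness. Calls required a change of 1.2 or more on the log2 scale, in either direction, with a limma p of 0.01 or less after adjustment (Benjamini-Hochberg) over all probes tested. In such tissue, fewer smooth muscle cells and less RNA per muscle cell cannot be told apart.

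Sequences of 2 promoters are shown because the members moved together across the tissues and the CArG box is the element through which serum response factor binds muscle genes. The promoter sequences are from RefSeq (GRCm38.p6), which held 7 of the 10 members, all but *Myh11*, *Tagln* and *Actg2*. The sequences were searched over the 250 bases before the transcript start. The element spans 10 bases and reads the same on both strands. An exact CArG box was found in the promoter of 1 member, *Myl9*, which is 14.3% of the 7 and compares with 1.62% of 27025 gene symbols. With at most 1 base off, 3 members held one (*Acta2*, *Lmod1* and *Myl9*), which is 42.9% against 21.1% of all symbols. An exact box also lay before 4 of 12 filament linker genes described below (*Dmd*, *Fhl1*, *Ldb3* and *Vcl*), before 0 of 15 genes that control contraction, before 2 of 11 non-muscle relatives of the members (18.2%, *Actg1* and *Cnn2*), and before 0 of the 7 promoters found for the genes of most similar pattern. With at most 1 base off, the shares of these lists were 58.3%, 33.3%, 27.3% and 42.9%, in the same order. The last of them equals that of the members. The 200 bases before the start are printed 5′ to 3′ for *Acta2* (chr19:34255374-34255573, minus strand) and *Myl9* (chr2:156775264-156775463, plus strand), with the boxes in capitals.
Acta2: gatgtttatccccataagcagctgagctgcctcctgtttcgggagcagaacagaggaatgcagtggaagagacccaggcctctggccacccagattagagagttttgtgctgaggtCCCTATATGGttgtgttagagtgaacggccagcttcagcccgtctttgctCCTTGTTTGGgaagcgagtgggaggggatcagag
Myl9: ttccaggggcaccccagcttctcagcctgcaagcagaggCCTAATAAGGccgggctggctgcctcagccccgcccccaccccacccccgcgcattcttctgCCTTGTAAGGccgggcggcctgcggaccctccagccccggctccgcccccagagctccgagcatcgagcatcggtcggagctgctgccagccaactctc

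In *Myl9* the box that begins 161 bases before the start is exact and the one at 99 bases is 1 base off. Both boxes of *Acta2*, which begin 84 and 34 bases before the start, are 1 base off. A match is a description of the letters, and binding was not measured.

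Of the 4 tissue groups, adenoma had the lowest mean for all 10 members and colon the highest for 9, with small intestine and adjacent tissue between them. For *Myl9* the mean of adjacent tissue was 8.1 and that of colon 8.08. CT26 lay far below every tissue for every member except *Smtn* and *Lmod1*. *Lmod1* was well above background on 0 of 3 CT26 arrays and on 2 of 3 adenoma arrays, so its distance between these groups is not a measured size. The myosin heavy chain of smooth muscle, *Myh11*, shows the pattern. Its scaled log2 signal was 3.44, 4.04 and 2.42 on the small intestine arrays, 4.6 and 2.83 in adjacent tissue, 1.59, 1.47 and 1.67 in adenomas, 4.51, 4.48 and 3.99 in colon, and -6.85, -7.43 and -6.93 in CT26. The adenoma arrays were below every other tissue array, and the colon arrays overlapped with the brightest small intestine and adjacent arrays.

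**Figure D1:**
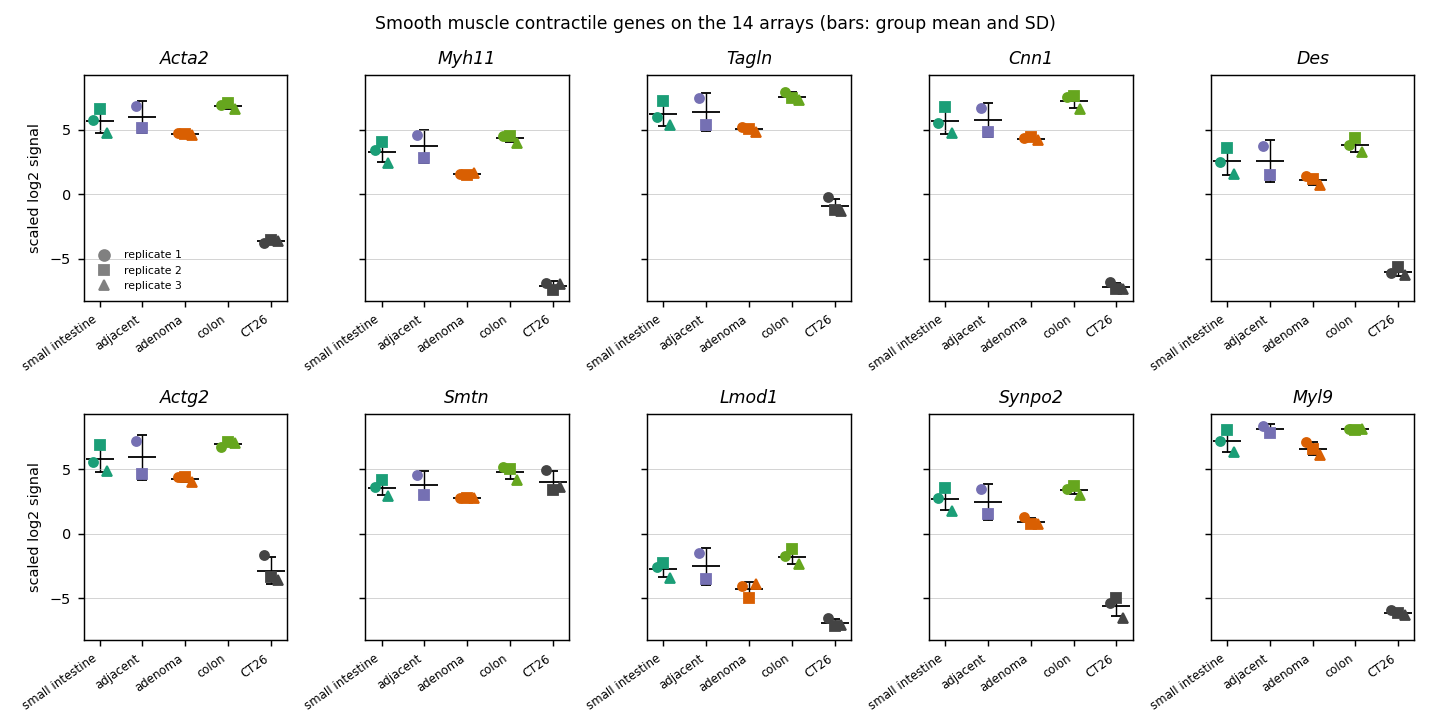
Scaled log2 signal (vertical axis, 0 is the 75th percentile of the array) of the 10 smooth muscle contractile genes in each group, with each array as a symbol by replicate and the group mean and SD as bars. The adenoma arrays lie close together and low, and small intestine and adjacent arrays are spread. CT26 is far below the tissues for all genes except *Smtn* and *Lmod1*. *Lmod1* is at background in CT26 and well above it on 2 of 3 adenoma arrays.

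*Actg2*, the actin of enteric smooth muscle, had a signal of 5.53, 6.9 and 4.88 in small intestine, 7.15 and 4.65 in adjacent tissue, 4.37, 4.4 and 3.96 in adenomas and 6.72, 7.08 and 7.02 in colon. *Acta2*, the actin shared by vascular and visceral muscle, ranged from 4.74 to 6.57 in small intestine, 5.13 to 6.85 in adjacent tissue, 4.56 to 4.76 in adenomas and 6.62 to 7.04 in colon. For both actins the 3 colon arrays were above every adenoma array, and for *Acta2* the brightest adenoma array overlapped with the dimmest small intestine array. *Myl9*, the regulatory light chain that is phosphorylated in contraction, had 7.17, 8.03 and 6.35 in small intestine, 8.37 and 7.83 in adjacent tissue, 7.07, 6.55 and 6.12 in adenomas and 8.08, 8.04 and 8.1 in colon. *Myl9* and *Acta2* were the members whose adenoma and small intestine arrays overlapped.

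Among the actin-binding proteins, *Cnn1* (calponin, which restrains the myosin motor) had 5.5, 6.8 and 4.78 in small intestine, 6.69 and 4.81 in adjacent tissue, 4.38, 4.4 and 4.18 in adenomas and 7.53, 7.6 and 6.62 in colon. *Tagln* (transgelin) ranged from 4.81 to 5.21 in adenomas and from 7.3 to 7.94 in colon, and *Lmod1* (leiomodin, which nucleates actin filaments) from -4.96 to -3.91 and from -2.39 to -1.21. *Des* (desmin, the intermediate filament of muscle) ranged from 0.73 to 1.42 in adenomas and from 3.31 to 4.34 in colon, and *Synpo2* (a scaffold protein of actin filaments) from 0.75 to 1.27 and from 3 to 3.67. Each of these genes had its adenoma arrays below every colon and every small intestine array. In adjacent tissue they had 1 high and 1 low array, replicate 1 and replicate 2, and the lower of them was near the adenoma arrays (1.47 for *Des*, against at most 1.42 in adenomas).

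Adenomas were compared with healthy small intestine, the main site of such tumors, from animals without the *Apc* allele. The means of all 10 members were lower in adenomas, by a log2 fold change of -1.75 (*Synpo2*) to -0.6 (*Myl9*), with a median of -1.42 beside -0.15 over all 22094 genes tested. *Myh11* fell, with a log2 fold change of -1.72 ± 0.387 (SE, adjusted p in limma = 0.0096), and was the 1 member called. Across all genes 11.1% were called lower in this comparison. *Synpo2* missed the threshold with -1.75 (standard error 0.422, limma adjusted p = 0.0127), as did *Lmod1* with -1.52 (limma adjusted p = 0.0157), and *Myl9* had -0.6 (limma adjusted p = 0.282). For 8 members the adenoma arrays lay wholly below the small intestine arrays, against 37.4% of all genes. Small intestine replicate 3 set how many members were called, since 5 were called without it and 0 without any other single array, and 7 members had an adjusted p of at most 0.05 with no limit on the fold change. *Myh11* was not called after quantile normalization, on the authors' table, or with slide as a block. Within slide 1 the median over the members was -0.9 and within slide 2 -2.43, with all 10 lower on each.

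The comparison of adenoma with adjacent tissue asks what distinguishes the tumor from its surroundings in the same animal. All 10 members had lower means in adenomas, by -2.14 (*Myh11*) to -1.03 (*Smtn*), and every adenoma array was below both adjacent arrays for all 10. None passed the thresholds, against 1.78% of all genes called lower, and 28.7% of all genes had adenoma arrays wholly below the adjacent ones. In limma 6 members had an unadjusted p under 0.05, and the lowest adjusted p was that of *Myl9*, 0.0291, at a log2 fold change of -1.52 (standard error 0.324). *Myh11* followed with an adjusted p of 0.0365 in limma. The median over the members was -1.51, beside -0.04 over all genes. The adjacent arrays decided its size, since it was -2.46 with 8 members called when adjacent replicate 2 was left out, and -0.48 with 0 called when adjacent replicate 1 was left out. Within slide 1 it was -2.43 and within slide 2 -0.44, with all 10 members lower on each.

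Against colon, adenomas had lower means of all 10 members, and 7 fell past the thresholds, namely *Acta2*, *Myh11*, *Tagln*, *Cnn1*, *Des*, *Actg2* and *Synpo2*. Across all genes 1.63% were called lower. *Cnn1* had the largest difference, -2.93 on the log2 scale with a standard error of 0.304, or 7.62-fold (limma adjusted p = 0.00439), followed by *Myh11* with -2.75 (standard error 0.214, limma adjusted p = 0.00223). The 3 members that were not called were *Smtn* (-2.04, limma adjusted p = 0.0106), *Lmod1* (-2.52, limma adjusted p = 0.0152) and *Myl9* (-1.49, limma adjusted p = 0.0216). All 10 had every adenoma array below every colon array, against 19.4% of all genes. The median over the members was -2.53, beside -2.71 within slide 1 and -2.47 within slide 2. The number called varied with the arrays, from 9 without colon replicate 3 and 3 without colon replicate 2 to 0 without any other single array, and it was 0 with slide as a block. The comparison sets adenomas, which in these mice arise mainly in the small intestine, beside colon, and it shares its adenoma arrays with the comparisons above.

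**Figure D2:**
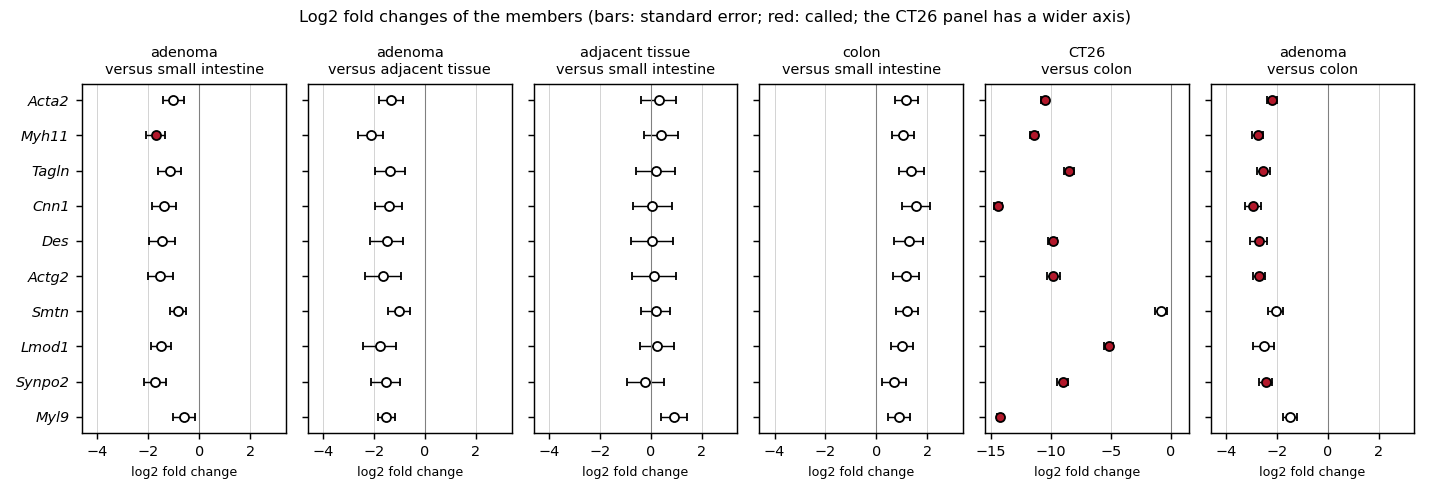
Log2 fold change (horizontal axis) of each member in the 6 comparisons, as the first group minus the second, with the standard error of the fit as bars and the called genes in red. The 3 adenoma panels lie to the left of 0 for all 10 genes, the colon panel to the right of 0, and the CT26 panel, which has a wider axis, starts at -0.79 for *Smtn*; *Myh11*, *Cnn1*, *Des*, *Lmod1* and *Myl9* are at background in CT26, so their points there are not measured sizes.

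Adjacent tissue and healthy small intestine had overlapping arrays for all 10 members. The log2 fold change ranged from -0.21 (*Synpo2*) to 0.92 (*Myl9*), the other 8 means were between 0.05 and 0.41 higher in adjacent tissue, and no member was called, with 0 at an unadjusted p under 0.05. In this comparison 0.00924% of all genes were called higher and 21.9% had adjacent arrays wholly above the small intestine arrays. The slides gave opposite signs. On slide 1 all 10 members were higher in adjacent tissue (median 1.61), and on slide 2, which held 1 array of each group, all 10 were lower (median -1.64).

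The arrays of these groups were ordered alike by every member. In small intestine, replicate 2 was above replicate 1 and replicate 1 above replicate 3 for 10 of 10 members, an order seen in 9.66% of 19982 genes well above background there. In adjacent tissue, replicate 1 was above replicate 2 for 10 of 10 members and for 53.7% of 21166 genes. The median SD of the members was 0.89 in small intestine (n = 3) and 1.36 in adjacent tissue (n = 2), where the median SD over all genes was 0.29 and 0.2. In adenomas (n = 3) the members had a median SD of 0.22 against 0.17, and in colon (n = 3) 0.34 against 0.41. The members varied far more than most genes did between small intestine samples, which came from different animals, and between adjacent pieces of 1 mouse. In small intestine 95.2% of genes and in adjacent tissue 98.5% had an SD below that of the median member. In adenomas the share was 66.3%, in colon 40%. Of the other lists, 7 of 8 fibroblast and 4 of 4 mesothelial markers had the same order in small intestine and 0 of 8 epithelial markers had it, while 7 of 8 fibroblast and 7 of 8 epithelial markers had the order of the members in adjacent tissue. The order in small intestine also held for 9 of 13 genes that control contraction, 10 of 14 filament linkers and 4 of 5 pericyte markers, and for 0 of 5 leukocyte markers. In adjacent tissue the order held for 13 of 13, 15 of 15, 4 of 6 and 3 of 5 of these. The part of these lists in the order of the members was not tested.

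Colon was compared with small intestine as the other normal organ, with the doubt about the genotype of 1 colon sample given above. The means of all 10 members were higher in colon, by 0.69 (*Synpo2*) to 1.56 (*Cnn1*), with a median of 1.17 beside -0.08 over all genes. None was called, in a comparison where limma called 0.00484% of all genes higher, and 4 members had an unadjusted p under 0.05 (*Acta2*, *Tagln*, *Cnn1* and *Smtn*). The lowest adjusted p was 0.159, for *Smtn*, in limma. For *Acta2*, *Tagln* and *Myl9* the colon arrays lay wholly above the small intestine arrays, which 12% of all genes did. Within slide 1 the median over the members was 1.78, with 10 higher, and within slide 2 it was 0.21, with 7 higher and 3 lower. Without colon replicate 3 the median was 1.3, and without small intestine replicate 3 it was 0.72. Means of other lists were higher in colon too, for 6 of 6 enteric neuron and glia markers tested (median 1.32 over the list), 3 of 3 markers of interstitial cells of Cajal (1.53) and 7 of 8 fibroblast markers (0.91), and lower for 4 of 4 mesothelial markers (-1.36). Their part in the difference of the members was not tested.

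CT26 cells were compared with colon, and 9 of 10 members fell past the thresholds, beside 16.2% of all genes called lower. The CT26 arrays lay wholly below the colon arrays for these 9, against 24% of all genes. *Acta2* was measured in CT26 at -3.76, -3.53 and -3.63, a level 1450-fold below colon (log2 fold change -10.51, standard error 0.274, limma adjusted p = 5.46e-07). *Tagln* was at -0.24, -1.23 and -1.32, which is 360-fold below colon, and *Actg2* at -1.63, -3.37 and -3.58, 889-fold below. These 3 genes and *Smtn* were well above background on all CT26 arrays. *Myh11*, *Cnn1*, *Des*, *Lmod1* and *Myl9* were well above background on none of them, so their fold changes are bounds. A bound sets the colon mean against, per CT26 array, the higher of the gene's own signal and the lowest signal of any probe well above background. *Myl9* was at least 8510-fold lower, *Cnn1* at least 4790-fold, *Myh11* at least 634-fold, *Des* at least 445-fold and *Lmod1* at least 9.21-fold. *Synpo2* was well above background on 1 of 3 CT26 arrays, and its mean there, 514-fold below colon, includes the other arrays at their measured signal. With any 1 array left out, 9 members were called. Within slide 1 the median over the members was -10.11 and within slide 2 -9.73, values that include the genes at background in CT26 and are no bound.

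*Smtn*, which encodes smoothelin, a protein of actin stress fibers, was the exception. Its signal in CT26 was 4.95, 3.36 and 3.64, against 5.13, 5.04 and 4.16 in colon. The arrays overlapped, and the difference of -0.79 had a standard error of 0.492 (limma adjusted p = 0.217). The other probe of *Smtn* read 2.83, 1.33 and 1.48 in CT26 against 1.48, 1.04 and -0.14 in colon. Its difference of 1.08 had a standard error of 0.556 (limma adjusted p = 0.14), so the probes differed in sign and neither was called.

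The probes of *Smtn* also differed within the tissues. The brighter probe followed the other members, with -0.84 between adenoma and small intestine and -2.04 between adenoma and colon. The dimmer one had 0.29 (limma adjusted p = 0.219) and -0.51 (limma adjusted p = 0.485), and its tissue values ran only from -0.28 to 1.48. The brighter probe lies at chr11:3417530-3417589 and the dimmer at chr11:3420834-3420893 (mm9, minus strand), and they carry different RefSeq transcript accessions of the gene. The dimmer probe is shown because it gave another pattern, and the probe of *Myh11* (chr16:14202190-14202249, mm9, minus strand) because it carried the call against small intestine. They are printed as on the array, with no base singled out.
Smtn: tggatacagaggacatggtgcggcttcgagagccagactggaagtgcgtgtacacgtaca
Myh11: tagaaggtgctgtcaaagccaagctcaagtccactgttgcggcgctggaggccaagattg

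The 3 probes of *Synpo2* ran the same way in the adenoma comparisons. One of the dimmer probes was called between adenoma and small intestine, with a log2 fold change of -1.79 ± 0.272 (SE, adjusted p in limma = 0.00209), where the brightest had -1.75 and was not called. Between adenoma and colon the brightest and that probe had -2.44 and -2.14. The last probe was not tested, being well above background on 0 of 3 adenoma and 2 of 3 colon arrays, and was at least 4.5-fold lower in adenomas.

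**Figure D3:**
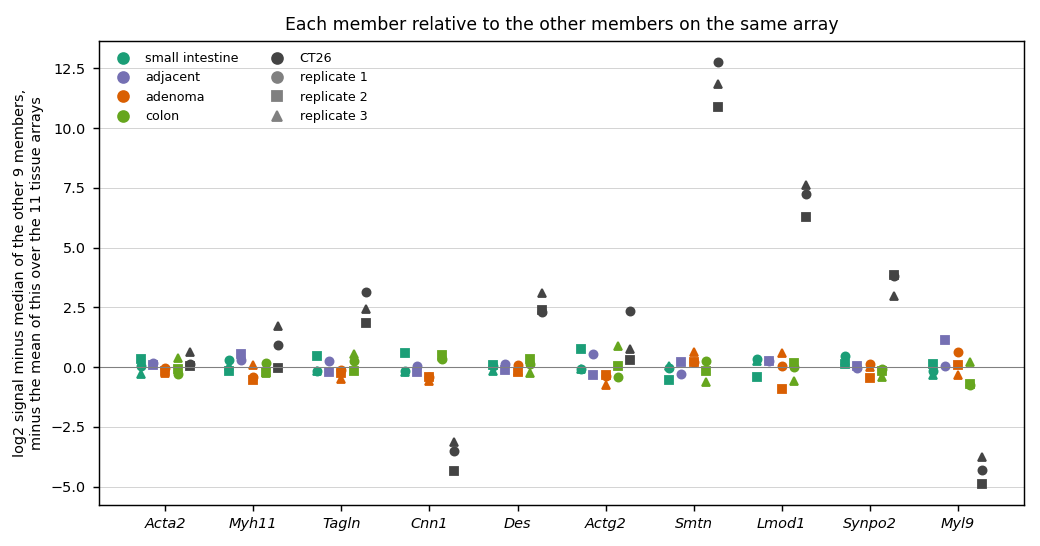
Scaled log2 signal of each member minus the median of the other 9 members on the same array, less the mean of that difference over the 11 tissue arrays (vertical axis), with groups by color and replicates by symbol. The tissue arrays stay between -0.92 and 1.13 for all 10 genes, whereas *Smtn* stands far above its tissue mean in CT26, where most of the other members are at background, so that no distance on the CT26 arrays is a measured size.

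Within the tissues each member moved less relative to the others than in level. Relative to the median of the other 9 members on its array, *Des* moved over a range of 0.61 across the 11 tissue arrays while its level moved over 3.61, and *Acta2* over 0.67 against 2.48. The relative range was 0.9 (*Synpo2*) to 1.22 (*Smtn*) for *Synpo2*, *Tagln*, *Myh11*, *Cnn1* and *Smtn*. It was 1.5 for *Lmod1* and 1.62 for *Actg2*, against levels that moved over 3.75 and 3.19. *Myl9* moved most, over 1.89 against 2.25. It was highest relative to the others on adjacent replicate 2, where it stood 1.13 above its tissue mean, and lowest in colon replicate 1. Pearson correlations between members over the 11 tissue arrays, which share groups, slides and pieces of tissue, ranged from 0.794 to 0.989 over 45 pairs. All 36 pairs without *Myl9* had at least 0.914, and the median correlation of *Myl9* with the others was 0.852.

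The other genes most like the members were found by correlating each gene that was well above background on all 11 tissue arrays with the mean centred profile of the members. Over 18135 genes the median correlation was 0.06, and 109 genes (0.601%) reached 0.9. The 10 highest, between 0.982 and 0.992, were *Pdlim3*, *Popdc2*, *Dact3*, *Wscd2*, *1810041L15Rik*, *Pgbd5*, *Synm*, *Tpm2*, *Bves* and *Rtn2*. *Pdlim3* (a protein of Z-discs and dense bodies), *Synm* (synemin, an intermediate filament protein) and *Tpm2* (tropomyosin) are in the lists of muscle genes described below, and *Popdc2* and *Bves* are Popeye domain genes known from heart and skeletal muscle. *Pdlim3*, *1810041L15Rik*, *Synm* and *Bves* were well above background on 0 of 3 CT26 arrays, while *Dact3*, *Wscd2*, *Tpm2* and *Rtn2* were so on all.

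**Figure D4:**
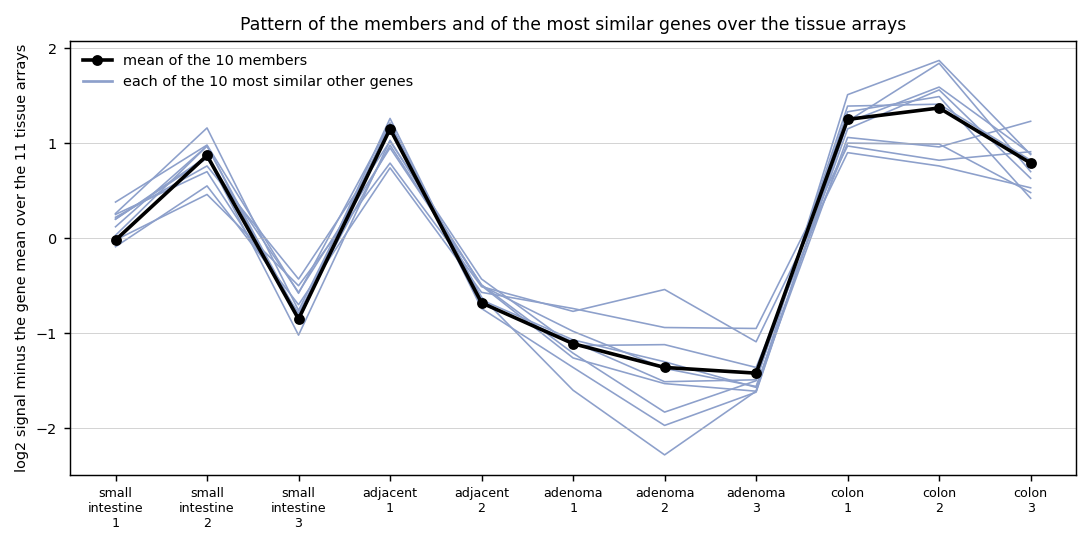
Scaled log2 signal of each gene minus its mean over the 11 tissue arrays (vertical axis), by array (horizontal axis), for the mean of the 10 members (black) and the 10 other genes of most similar pattern (blue). The profile of the members is highest on colon replicate 2 and lowest on adenoma replicate 3, and the arrays within small intestine and within adjacent tissue differ.

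Of 15 genes that control contraction, 13 were tested between adenoma and small intestine and 2 fell, *Mylk* (the kinase of myosin light chain, log2 fold change -1.71, limma adjusted p = 0.00119) and *Tpm1* (tropomyosin, -1.21, limma adjusted p = 0.00251), with a median of -1.13 over the list beside -0.15 over all genes. A count of 2 of 13 is near the 11.1% of all genes called lower. Between adenoma and colon 5 of 13 fell, *Tpm2*, *Ppp1r14a* (an inhibitor of myosin phosphatase), *Prkg1* (the kinase of cyclic GMP signaling), *Mrvi1* and *Hspb6*, with log2 fold changes from -2.4 to -1.44, and without colon replicate 3 10 of 14 fell. In CT26 against colon 10 of 14 fell and 1, *Cald1* (caldesmon), rose by 2.14 (limma adjusted p = 0.000547). Between adenoma and adjacent tissue limma called 0 of 13, 7 had an unadjusted p under 0.05, and the median was -1.34 over the list.

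Of 15 genes that link filaments to the membrane or to dense bodies, 5 fell between adenoma and small intestine, among them *Ldb3* (-2.28), *Synm* (-1.91), *Pgm5* (-1.84) and *Dmd* (dystrophin, -1.78). *Pdlim7* rose by 2.19 (limma adjusted p = 0.00129). Against colon 6 of 15 fell in adenomas, among them *Synm*, *Pdlim3*, *Pgm5*, *Sgcd* and *Flna* (filamin), from -2.88 to -1.32, and without colon replicate 3 9 of 15 fell. Against adjacent tissue *Dmd* was called, with -2.39 (limma adjusted p = 0.00848). The medians over this list were -0.8, -1.46 and -1.06 in these 3 comparisons, each nearer to 0 than the median of the members.

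Of the transcription regulators, *Myocd*, the coactivator that drives the smooth muscle program, had a signal of -1.86, -1.18 and -3.09 in small intestine, -0.64 and -2.26 in adjacent tissue, -2.82, -2.64 and -2.64 in adenomas and -1.13, -0.39 and -1.28 in colon. Its arrays followed the order of the members in small intestine and adjacent tissue. In small intestine it was the only one of 6 regulators well above background to do so, against 9.66% of all genes. In adjacent tissue 4 of 7 regulators had the order, against 53.7% of all genes. Between adenoma and colon it had a log2 fold change of -1.77, which missed the threshold (limma adjusted p = 0.0133), and without colon replicate 3 it was called, at -1.94 (limma adjusted p = 0.00425). In CT26 it was well above background on 0 of 3 arrays and at least 16.6-fold below colon (limma adjusted p = 9.02e-05). *Srf* had -0.75 between adenoma and colon (limma adjusted p = 0.261) and 0.51 between CT26 and colon (limma adjusted p = 0.352). *Tead1* rose in adenomas against small intestine, by 1.62 (limma adjusted p = 0.00365), and in CT26 against colon by 2.13 (limma adjusted p = 0.00102), where *Gata6*, well above background on 0 of 3 CT26 arrays, was at least 123-fold lower. *Foxf1a* was called higher in CT26 and was well above background there on 3 arrays and on 1 of 3 in colon.

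Non-muscle relatives of the members include the cytoplasmic actins *Actb* and *Actg1*, the myosin *Myh9* and the intermediate filament *Vim*. Of 12 tested between adenoma and colon, 0 were called in limma, 3 had an unadjusted p under 0.05 (*Cnn3*, *Tagln2* and *Tmod3*, all with higher means in adenomas), and the median was 0.12 over the 13 on the array. Without colon replicate 3, 1 of 12 was called, *Cnn3*, at 1.23 (limma adjusted p = 0.0078). Between adenoma and small intestine 1 of 12 was called, *Cnn3*, which rose by 1.99 (limma adjusted p = 0.000945), and the median was 0.01. *Actb* had -0.51 in that comparison and -0.27 against colon, and *Actg1* -0.27 and -0.17, none of them called. Without colon replicate 3 both turned in sign against colon, to 0.27 and 0.1. In CT26 against colon *Cnn3* rose by 2.59 and *Vim* by 4.69 (limma adjusted p = 0.000277), the other 9 tested were not called, and the median was -0.33. Without colon replicate 3, 12 were tested there, of which 2 were called higher and 1 lower.

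Markers of other cell types of the gut wall are given beside these results. In adenomas against small intestine, 3 of 8 fibroblast markers rose, *Col1a1* by 3.14, *Pdgfra* by 2.62 and *Col1a2* by 2.21, and *Fbln1* fell, at -1.99. Their summed scaled signal was 37.5 to 88.8 in small intestine and 93.4 to 109 in adenomas, where that of the members was 226 to 792 and 168 to 255. Of 4 endothelial markers *Cdh5* and *Vwf* rose, by 3.93 and 2.15, and of 6 pericyte markers *Notch3* rose by 2.76. In each of these lists 1 marker had a lower mean in adenomas, *Kdr* (3.05 against 3.66) and *Rgs5* (1.01 against 1.8). The median log2 fold change was 1.44 over the endothelial and 0.53 over the pericyte list. Of 3 markers of interstitial cells of Cajal, the pacemaker cells of the gut, *Ano1* rose by 2.46. The mean of *Kit* was higher in adenomas (1.03 against 0.17) and that of *Etv1* lower (-1.01 against -0.47), and neither was called. Of 6 enteric neuron and glia markers tested, 0 were called in limma and 2 had an unadjusted p under 0.05. Of 5 leukocyte markers *Itgam* and *Ptprc* fell, at -3.09 and -1.43, and of 8 epithelial markers *Vil1*, *Cldn7* and *Cdh17* fell and *Krt18* rose.

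Of 4 mesothelial markers, which mark the serosa that covers the muscle coat, 3 fell between adenoma and small intestine, by at least 8.34-fold (*Upk3b*), 4.35-fold (*Lrrn4*) and 4.73-fold (*Wt1*), bounds set as for CT26 above (limma adjusted p = 0.00107, 0.00292 and 0.00367). These 3 were well above background on all small intestine arrays and on no adjacent or adenoma array, whereas *Msln*, the other marker, was so on every array of these groups. Adipocyte markers summed to 23 to 76 in small intestine, 4.96 to 6.03 in adjacent tissue and 7.87 to 11.7 in adenomas, and of the 2 tested 0 were called in limma, with 1 at an unadjusted p under 0.05. On small intestine replicate 3, which had the sum of 76, *Cidec* was at 6.24 while *Adipoq*, *Plin1* and *Cfd* were lower than on the other small intestine arrays. On the adjacent and adenoma arrays *Cidec* was at 2.18 to 3.52 and the other adipocyte markers at -0.27 or lower, so that *Cidec* made up most of the sums there. How much of each layer a piece held is not given in the sources used here, and the part of these cell types in the difference of the members was not tested.

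Of 8 skeletal muscle markers 4 were tested between adenoma and small intestine, where *Acta1* (skeletal actin) and *Ckm* (muscle creatine kinase) fell, at -2.02 and -2, and *Tnni2* rose by 2.07. *Myh4*, *Myh1*, *Tnnt3* and *Mylpf* were not tested, being well above background on 0 arrays of either group. Over the 11 tissue arrays *Ckm* had a correlation of 0.979 with the mean profile of the members. Against colon, *Acta1* and *Ckm* fell in adenomas as well, at -2.31 and -2.74, and *Cdh5* rose by 3.18. These 3 were also called without colon replicate 3. In CT26 against colon all 8 epithelial markers fell, as did 5 of 6 pericyte markers, 2 of 3 markers of interstitial cells of Cajal and 4 of 8 fibroblast markers. *Col1a2* rose there by 4.33, *Pdgfrb* by 2.75 and *Msln* by 5.41.

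**Figure D5:**
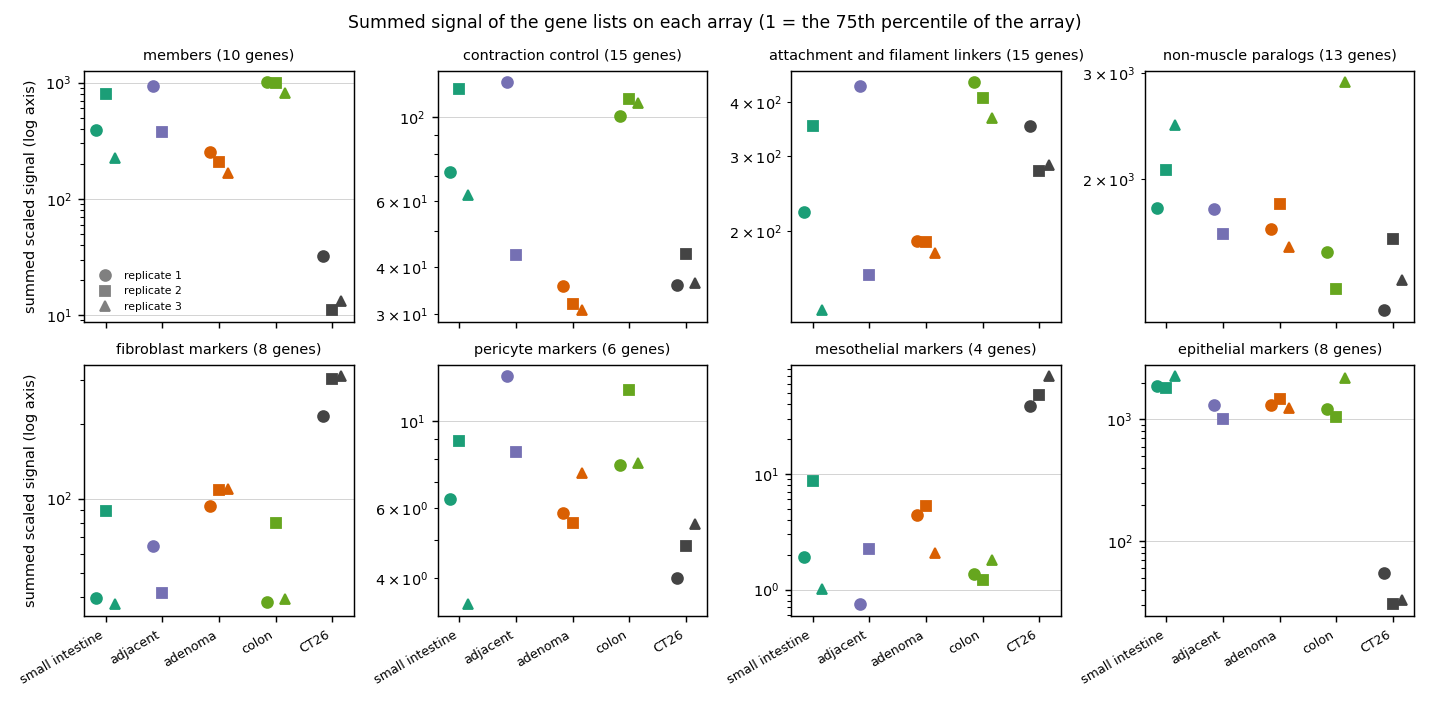
Summed scaled signal (vertical axis, logarithmic, 1 is the 75th percentile of the array) of 8 gene lists on each array, by group and replicate. The adenoma arrays sum to 168 to 255 for the members and 93.4 to 109 for fibroblast markers, colon arrays to 811 to 1010 and 38.2 to 79.4, and epithelial markers sum to 30.5 to 54.8 in CT26, far below the tissues.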

How the data were processed

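Total RNA of tissue or cells was labelled with Cy3 and hybridized to one-color Agilent mouse arrays of 62976 spots. The scanner files the authors deposited (Feature Extraction, version 10.7.3.1) hold a processed intensity per spot, from which background is subtracted but which is not normalized between arrays. The authors also deposited log2 values that they had normalized by a method not given in the sources used here. The 21 columns of that table with the authors' own comparisons (folds, p-values and adjusted p-values) and 28 flag and detection columns per sample were not used. Per the file headers, probe positions are those of mm9.

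After removal of control and outlier spots, processed signals were put on the log2 scale, scaled to the 75th percentile of their array and averaged by probe. Groups came from the sample labels. Each of 6 pairs of groups was fitted on its own arrays with limma 3.58.1 (lmFit, eBayes) in R 4.3.3, over probes that exceeded background throughout at least 1 of its groups, and p-values were adjusted by Benjamini-Hochberg over all probes tested. The fit was tested on simulated data. Percentages over all genes use 1 probe per gene name, that with the highest mean signal.

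The members and gene lists were chosen with earlier results of these data known. All 10 members are named, genes of the lists are counted and named where called or defining, and the 10 genes of most similar pattern are those with the highest correlation. Of the listed genes, *Foxf1* and *Myl12a* were not found by these names on the array. The RefSeq accession of all 13 member probes carries the member's symbol. The number of arrays limits the precision. Alternatives were normexp background correction (offset 50), quantile normalization, median centring, the authors' table, other filters on dim probes, 1 fit of all 5 groups, an intensity trend, slide or replicate number as a block, adjusted p of at most 0.05 with no fold limit, all probes of a gene, and each array left out in turn. Some genes of the lists are counted but not reported here by name.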

Additional observations from a re-analysis of the deposited data

How the results depend on the processing

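The count of members called depended on the processing more than the direction did. Between adenoma and small intestine, 1 member was called, and 0 with quantile normalization, median centring, the authors' table, all probes tested, 1 fit of all 5 groups or slide as a block, 2 with an intensity trend and 7 at an adjusted p of at most 0.05 with no fold limit. With arrays left out in turn, the count ran from 0 to 5 there and the median log2 fold change from -1.85 to -0.87. Between adenoma and adjacent tissue, 2 were called with no fold limit, and arrays left out gave 0 to 8 called and medians from -2.46 to -0.48. Between adenoma and colon, 2 were called with all probes tested and 0 with slide as a block, and arrays left out gave 0 to 9 called and medians from -2.66 to -2.37. Between CT26 and colon, 3 of the 4 testable members were called among probes that exceeded background throughout both groups, the median was -8.02 with normexp, -10.33 with median centring and -7.95 on the authors' table, and arrays left out gave 9 called and medians from -10.1 to -9.58. These medians include genes at background in CT26. Between colon and small intestine 0 were called under every alternative run, and arrays left out gave medians from 0.72 to 1.56.

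Between adjacent tissue and small intestine 0 members were called under every alternative run, and the sign was not stable. Arrays left out gave medians from -0.79 to 1.19, with *Acta2* from -0.55 to 1.17, *Myh11* from -0.47 to 1.3, *Tagln* from -0.83 to 1.24, *Cnn1* from -0.88 to 1, *Des* from -1.09 to 1.19, *Actg2* from -1.12 to 1.38, *Smtn* from -0.59 to 0.96, *Lmod1* from -0.75 to 1.26 and *Synpo2* from -1.2 to 0.77, and *Synpo2* turned to 0.07 with quantile normalization and 0.09 on the authors' table. Same-numbered arrays had deviations correlated between -0.322 and 0.291 over all comparisons, most of which set different animals or a cell line side by side. For adenoma and adjacent tissue, from the same mouse, the correlations were -0.01 and -0.036. Numbers in the sample titles pair these arrays differently and gave 0.036 and 0.026. With 2 adjacent arrays the deviations mirror each other, so the check cannot decide whether pieces were matched. With the replicate number as a block, the median between adjacent tissue and small intestine turned to -0.18. *Acta2* was then at -0.16, *Myh11* at -0.03, *Tagln* at -0.21, *Cnn1* at -0.4 and *Des* at -0.46. *Actg2* was at -0.32, *Smtn* at -0.12 and *Lmod1* at -0.08. With this block, 0 members were called between adenoma and small intestine and between adenoma and colon. In the other comparisons the block left the count of called members as it was. The cause of these changes was not tested. The counts of listed genes without colon replicate 3 were chosen after seeing the data.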
